A study of Bos taurus with 48 samples.

Results

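The genes described here serve protein folding in the endoplasmic reticulum (ER) of bovine liver and the stress signalling that watches over it. They were chosen by name: 37 genes were listed by their known role, and every spot whose gene name in the annotated array table equals a listed name was taken. Of the 37, 35 had at least 1 spot with an unambiguous name (99 spots in all) and 34 were measured often enough to be tested, out of 15011 genes tested in all. They fall into chaperones and co-chaperones (8 tested of 9), disulfide enzymes (7 of 7), the translocon through which new proteins enter the ER (7 of 7), ER-associated degradation (6 of 6), and stress sensors and transcription factors (6 of 8). ATF6, a membrane-bound stress sensor, had no spot under that name. DNAJC3, a co-chaperone, was left out because its written name could also stand for DNAJC30, and ERN1, the sensor that splices XBP1 mRNA, was measured on 23 of 48 arrays, below the minimum of 24.

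Nearly all secreted proteins of the liver, such as albumin and the apolipoproteins, are folded in the ER before they leave the cell. When unfolded proteins accumulate there, the sensors IRE1 (encoded by ERN1), PERK (encoded by EIF2AK3) and ATF6 start the unfolded protein response, in which the factors XBP1, ATF4 and ATF6 raise the transcription of chaperones, disulfide enzymes and degradation genes and, under lasting stress, of DDIT3. Liver of dairy cows around calving is a tissue in which this response has often been discussed, because secretion, fatty acid load and inflammation change together.

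Liver biopsies of 32 grazing cows came from 3 days counted from calving, −7 d, 7 d and 28 d. The cows had been managed to a body condition score (BCS) of 4 or 5 on a 10-point scale and, over the last weeks before calving, were offered pasture to meet 75 or 125% of estimated requirements, which gives the treatments B4F75, B4F125, B5F75 and B5F125 with 8 cows each. Feeding differed before calving only. By the study's methods the cows were pure Holstein or Holstein crossed with Jersey, with the lowest share of Holstein in B5F125. Their mean age was lower at 125 than at 75% of requirements in both BCS groups, and lowest in B5F125. Breed makeup and age therefore cannot be fully told apart from treatment, and the breed and age of single cows were not analysed here. Of 20 hepatocyte markers, 19 were tested, but a ratio of 2 liver samples gives no level by which the tissue could be checked. RNA of 2 cows met on each of 48 two-colour Agilent arrays, and the value of a spot is the log2 ratio of the 2 dyes, so that a gene has a difference between cows and no level of its own.

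The 32 cows formed 16 pairs with 3 arrays each. In 12 pairs the cows came from different treatments and were set against each other within a day (36 arrays), and these carry the comparisons of feeding and BCS. In the other 4 pairs, 1 per treatment, cows met across days (12 arrays), so that the comparisons of days with the treatments averaged rest on these 12 arrays, of which 4 hold both days of a given comparison, each from different cows. Between 1.43 and 21.5% of the spots of an array were blank, and intensities were not used here, so the depth of a spot is unknown. The 34 tested members were measured on all 48 arrays. The mean RNA integrity number given in the labels was 8.18 at −7 d, 7.77 at 7 d and 8.17 at 28 d, so that it was lowest at 7 d. Its part in the comparisons with 7 d was not tested.

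No source used here states which dye is the numerator of a ratio. Ratios were read as Cy5 over Cy3, the usual form of scanner output. For feeding and BCS this gives a likely direction, since most genes listed for the feeding comparisons in the study's supplement then have the sign printed there. No count of that agreement is given here, so this direction is likely and not established. For the days the direction was not settled. Read this way, HP, an acute-phase protein known to rise after calving, differed by −3.58 (SE 0.86, 3 of 4 arrays below 0) on the log2 scale between 7 and −7 d, and PC, an enzyme of gluconeogenesis also known to rise then, by −1.11 (SE 0.35). IGF1, a growth factor known to fall around calving, differed by 0.91 (SE 0.25, 4 of 4 arrays above 0). All 3 signs are the opposite of what is known of these genes, which were chosen for this check after their values were seen. The day comparisons are therefore given in the Cy5 over Cy3 order. If the ratio of these arrays is the inverse, every sign among them, HP included, turns together, and sizes and sides relative to HP are kept. If instead the days of some of these arrays are given to the wrong dye in the labels, sizes would change too, which was not tested. As a rough measure of dye effects, the mean ratios of the 10814 genes without blanks were taken over within-day and over between-day arrays. In the same order, they correlated at 0.40. In each between-day pair the same cow was in Cy5 on all 3 arrays, so the between-day mean also holds differences between cows. For dye effects alone, a ratio inverse on the between-day arrays only would be expected to make this correlation negative. The correlation does not bear on which day was given to which dye.

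What set several members apart was how widely they differed between individual cows. HSPA5, the gene of BiP, the main Hsp70 chaperone of the ER, had a standard deviation of 1.14 over the 48 log2 ratios, larger than that of 98.5% of the 10814 genes without blanks, whose median was 0.49. Its absolute log2 ratio was 0.02 on the narrowest array, 0.84 at the median and 3.50 on the widest, and it was beyond 1 on 17 arrays. DNAJB11, an Hsp40 co-chaperone of BiP, followed with 1.03, HERPUD1, a membrane protein of the degradation complex, with 0.96, SEL1L, the adaptor of the ubiquitin ligase SYVN1, with 0.91, and HYOU1, a large Hsp70-like chaperone, with 0.83. At the other end were DERL2, a channel protein of ER-associated degradation, with 0.25, SSR1, a subunit of the translocon-associated complex, with 0.31, and ERP44, a thioredoxin-like retention factor, with 0.32. The 4 probes of HSPA5 followed each other closely over the arrays (median r 0.91), as did those of DNAJB11 (0.99) and HERPUD1 (0.87). The probes of SEC61B (−0.16), SYVN1 (0.12), EIF2AK3 (0.15) and TRIB3 (0.19) did not, so the averages of these 4 genes rest on probes that disagree. SSR3 had a probe on all 48 arrays and another on 21, too few for such a correlation.

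The widest array for HSPA5 compared a B4F75 cow at −7 d with another B4F75 cow at 28 d and gave 3.50, a ratio of 11.3. On that same array SEL1L stood at 3.44, HERPUD1 at 3.12, DNAJB11 at 2.71, HYOU1 at 2.40 and XBP1, the factor that drives many ER genes, at 2.13. SEC61B, the small beta subunit of the Sec61 channel, stood at −1.80, on the other side, as the average of probes that disagree (r −0.16 over the arrays). The next widest array compared a B5F75 cow with a B4F125 cow at −7 d, with 2.55 for HSPA5 and 2.02 for DNAJB11. Among cows that met within days the difference mostly did not last: over −7, 7 and 28 d, only 1 of these 12 pairs kept the same sign of HSPA5. One pair of B4F75 and B4F125, for example, had HSPA5 ratios of −1.98, −0.13 and 1.54 on these days, read as B4F75 over B4F125. In the 4 pairs that met across days the same cow was in Cy5 on all 3 arrays, and HSPA5 kept its sign in each. Arrays of 7 with −7 d, 28 with −7 d and 28 with 7 d gave, as Cy5 over Cy3, 1.19, 3.50 and 1.07 in B4F75. They gave −1.02, −1.18 and −1.53 in B4F125, −0.31, −0.30 and −0.33 in B5F75, and 1.74, 0.32 and 0.48 in B5F125. The parts of cow and day in these ratios were not tested.

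Most chaperones varied together, with HSPA13 following HSPA5 least. For this description the arrays of a pair were turned to 1 direction and the mean dye effect was removed. The correlations run over 48 arrays that share cows within pairs, so they carry no test. Among the 28 pairs of chaperone genes the median Pearson r was 0.60 (from 0.09 to 0.93), and it was 0.55 without the widest HSPA5 array. The median was 0.39 within ER-associated degradation, 0.28 among disulfide enzymes, 0.25 within the translocon and 0.21 among stress sensors and transcription factors, and between members and all other genes it was 0.01. For comparison, the 22 cytosolic chaperones tested, which serve folding outside the ER, had a median r of 0.42 among themselves and 0.30 with the ER chaperones.

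**Figure D1:**
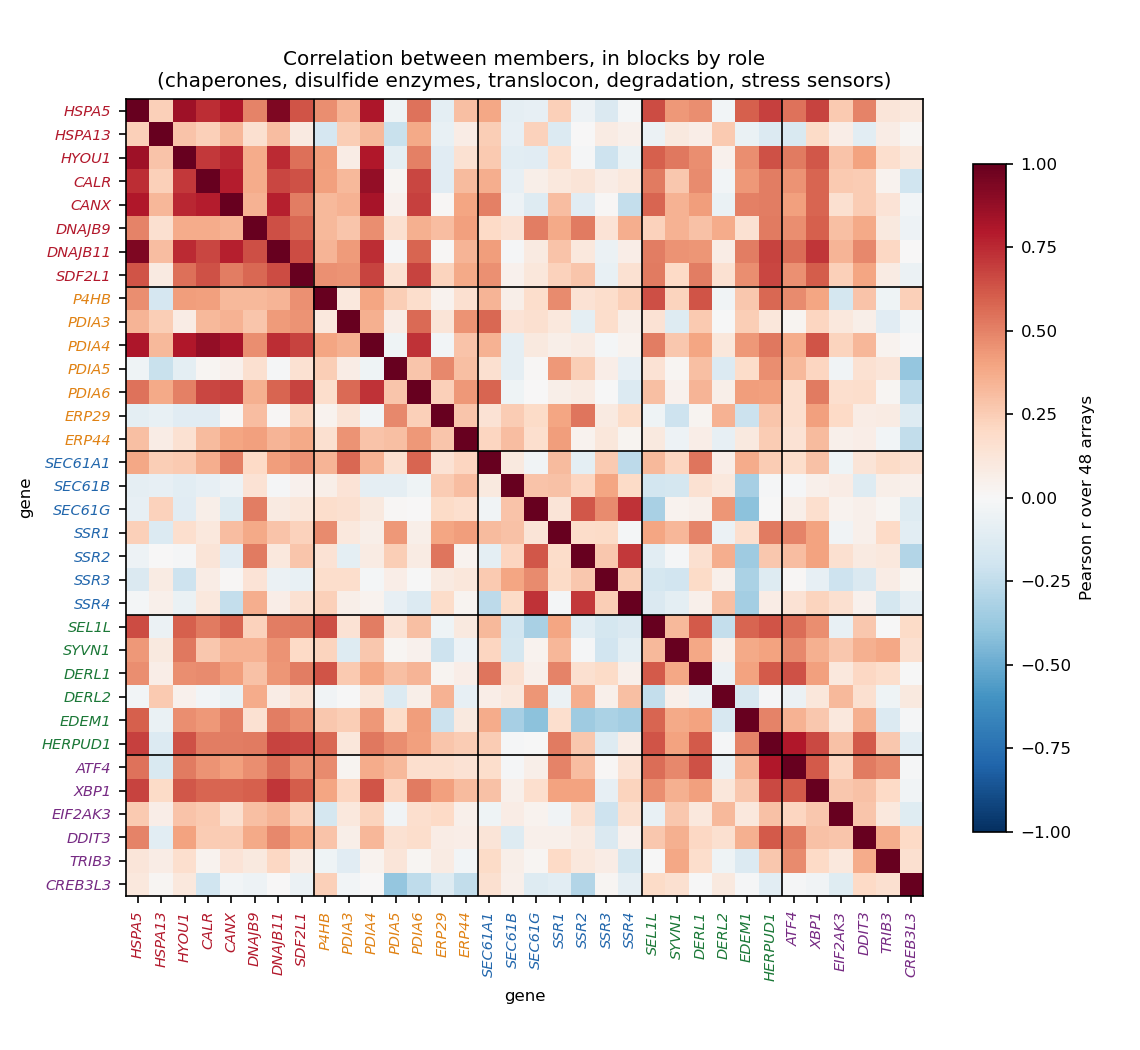
Pearson correlation (colour, −1 to 1) between the 34 members over 48 arrays, ordered by role with black lines between the roles. The chaperone block at the upper left is the darkest (median r 0.60), and HSPA5, DNAJB11, HYOU1, CANX and PDIA4 also reach into the degradation and stress blocks, while most translocon rows are pale or blue against the chaperones.

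Within this pattern the genes nearest to HSPA5 were those of the lumenal folding machinery. HSPA5 correlated at 0.93 with DNAJB11, 0.85 with HYOU1, 0.81 with PDIA4, a protein disulfide isomerase with several thioredoxin domains, 0.80 with CANX and 0.74 with CALR, the membrane-bound and the soluble lectin chaperone of glycoproteins. Of the degradation genes, HERPUD1 stood at 0.69, SEL1L at 0.65 and EDEM1, which marks mannose-trimmed proteins for disposal, at 0.60. Of the transcription factors, XBP1 stood at 0.68, ATF4, the factor translated when PERK is active, at 0.54 and DDIT3, known as CHOP, at 0.50. SDF2L1, a cofactor of BiP, reached 0.63, PDIA6 0.54, DNAJB9, another BiP co-chaperone, 0.49 and P4HB 0.47. The disulfide enzyme PDIA3 (0.34) and the chaperone HSPA13 (0.24) followed HSPA5 less. The members that barely followed HSPA5 were SSR3 (−0.14), SEC61B (−0.09), SEC61G (−0.08), SSR2 (−0.05), SSR4 (−0.02), ERP29 (−0.10), PDIA5 (−0.05), DERL2 (−0.03), CREB3L3, a liver factor cleaved at the Golgi (0.11), and TRIB3, a pseudokinase induced by DDIT3 (0.12).

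**Figure D2:**
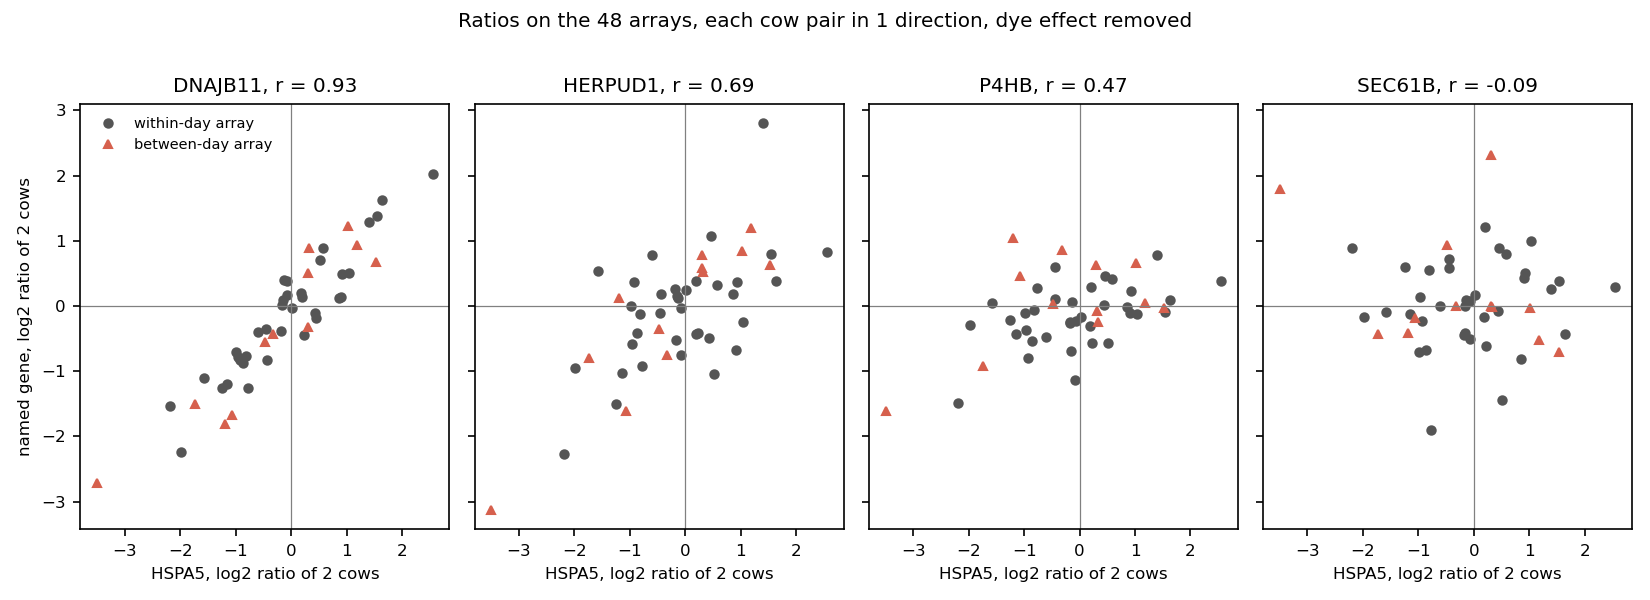
Log2 ratio of 2 cows on each of 48 arrays for HSPA5 (x axis) against DNAJB11, HERPUD1, P4HB and SEC61B (y axis), with within-day arrays as circles and between-day arrays as triangles, the widest array lying at −3.50 of HSPA5 in the direction plotted. DNAJB11 follows HSPA5 on nearly every array (r = 0.93), P4HB less closely (0.47) and SEC61B shows no trend (−0.09). The SEC61B value averages probes that disagree (r −0.16 with each other).

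The scatter of these ratios also showed how far the single widest array carried each relation. Without it, r with HSPA5 was 0.92 for DNAJB11, 0.60 for HERPUD1, 0.55 for SEL1L and 0.35 for P4HB. The translocon genes differed in this among themselves. SSR3 stood at 0.16 on the 36 within-day arrays and −0.64 on the 12 between-day arrays, SEC61G at 0.12 and −0.57, and SSR4 at 0.17 and −0.54. SEC61B went from 0.10 to −0.37, SSR1 went the other way from 0.09 to 0.56, and SEC61A1 (0.43 and 0.30) and SSR2 (−0.01 and −0.13) differed less. The 12 between-day arrays include the widest HSPA5 array. Without that array, r over all the others was 0.03 for SSR3, 0.08 for SEC61G, 0.13 for SSR4 and 0.07 for SEC61B. The between-day values without it were not computed. Outside the members, the 8 genes most like HSPA5 among 10780 genes on all arrays were CRELD2 (r 0.91), ATP2A2 (0.87), MANF (0.87), SLC33A1 (0.82), HSP90B1 (0.77), CDK2AP2 (0.74), SERP1 (0.74) and STIP1 (0.72). CRELD2 and MANF are secreted ER stress proteins, ATP2A2 is the calcium pump of the ER, and HSP90B1 is GRP94, the Hsp90 of the ER. Their differences between 7 and −7 d were from −0.48 to −0.16, and none was called.

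Whether HSPA5 moved with the cell makeup of a biopsy was read from marker genes, since in bulk tissue fewer cells of a type and less RNA per cell cannot be told apart. The median r of HSPA5 with the 19 hepatocyte markers was 0.02, and with the markers of the 7 other cell types it lay between −0.13 (erythroid, 3 genes) and 0.21 (endothelial, 12 genes). The marker with the closest relation in either direction was a hepatocyte gene at −0.54.

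The first question of the design was how the members differed between days, with the 4 treatments averaged. A gene counted as called where its fold change (FC) reached 1.5 in either direction and its unadjusted p was 0.01 or lower, the thresholds of the study. At these, P4HB was the only member called between 7 and −7 d and the only one called between 28 and −7 d, and none was called between 28 and 7 d, by limma or by a mixed model fitted gene by gene. Of all genes, 1.59% were called between 7 and −7 d, 2.15% between 28 and −7 d and 1.92% between 28 and 7 d, so that 1 of 34 members is near the share of all genes. At an unadjusted p under 0.05, 9 of the 102 member tests over the 3 comparisons were below it, against 10.3% of all tests. No member passed an adjusted p of 0.05 in any of the 21 comparisons of the study, in which 0.00349% of all tests did.

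P4HB (NCBI gene 281373) encodes the protein disulfide isomerase PDI, which forms and reshuffles disulfide bonds of new proteins and is also a subunit of prolyl hydroxylase and of the microsomal triglyceride transfer protein. Between 7 and −7 d its log2 ratio was −1.05 on the array of B4F75, −0.66 on that of B4F125, −0.07 on that of B5F75 and −0.91 on that of B5F125. Between 28 and −7 d the same treatments gave −1.61, 0.04, −0.63 and −0.86. So P4HB lay on the side of HP on 4 of 4 arrays for 7 d and on 3 of 4 for 28 d, with B5F75 near 0 in the former and B4F125 near 0 in the latter. The fitted difference was −0.65 (SE 0.19, FC 1.57, adjusted p 0.233) for 7 vs −7 d and −0.79 (SE 0.19, FC 1.73, adjusted p 0.082) for 28 vs −7 d. Between 28 and 7 d the arrays gave −0.46, 0.03, −0.24 and 0.03 and the fit −0.14 (SE 0.19), with no call. All 4 probes of P4HB lay on the same side, from −0.50 to −0.79 for 7 vs −7 d and from −0.52 to −0.91 for 28 vs −7 d. Both calls rest on the pair of B4F75 cows: without it, the differences were −0.48 (SE 0.22, adjusted p 0.626) and −0.51 (SE 0.22, adjusted p 0.578), and neither was called. Without the pair of B5F125 cows the 7 vs −7 d difference was −0.56 and not called either.

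**Figure D3:**
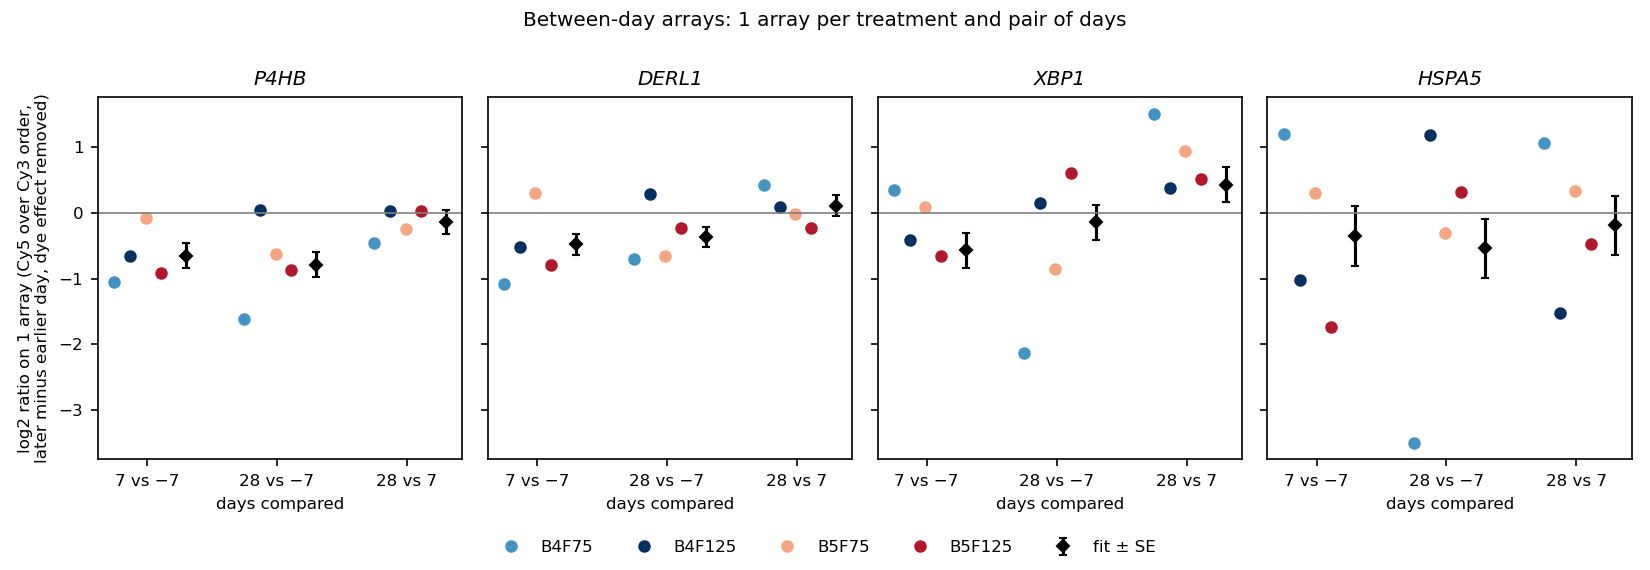
Log2 ratio between 2 days on each of the 12 between-day arrays (y axis, Cy5 over Cy3 order, dye effect removed) for P4HB, DERL1, XBP1 and HSPA5, with 1 coloured point per treatment and the fitted mean ± SE as a black diamond. P4HB lies at or below 0 against −7 d on nearly all arrays, while the 4 arrays of HSPA5 lie on both sides of 0, from −3.50 to 1.18 for 28 vs −7 d.

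The other members passed no call between days, and their values were mostly small against their errors. DERL1, part of the channel that carries misfolded proteins out of the ER, came closest for 7 vs −7 d with −1.08, −0.52, 0.30 and −0.79 on the arrays of B4F75, B4F125, B5F75 and B5F125 and −0.48 (SE 0.15, adjusted p 0.294) in the fit, which is under the FC threshold. XBP1 stood at −0.57 (SE 0.26, adjusted p 0.551) for 7 vs −7 d, from 0.34, −0.42, 0.08 and −0.65, so its arrays lay on both sides of 0, and the fit, which also draws on the arrays with 28 d, gave a larger size than these 4 alone. For 28 vs 7 d XBP1 was above 0 on 4 of 4 arrays (1.51, 0.38, 0.93 and 0.52; fit 0.43, SE 0.26, adjusted p 0.590), and so was TRIB3 (0.42, 0.68, 0.17 and 0.49; fit 0.43, SE 0.24, adjusted p 0.526). The probes of XBP1 differed there, with −0.02 (SE 0.36), 0.65 (SE 0.27) and 0.64 (SE 0.28). SEL1L had −0.76 (SE 0.34, adjusted p 0.369) for 28 vs −7 d, where its arrays ran from −3.44 in B4F75 to 1.95 in B4F125.

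HSPA5, with its wide spread over the arrays, had wide intervals in these comparisons. Its 4 arrays gave 1.19, −1.02, 0.31 and −1.74 for 7 vs −7 d, and the fit −0.35 (95% confidence interval −1.26 to 0.56). For 28 vs −7 d they gave −3.50, 1.18, −0.30 and 0.32, and the fit −0.54 (−1.45 to 0.38). These intervals hold 0 as well as differences beyond a factor of 2 on the side of HP, so that a change of HSPA5 between days of this size was not detectable with these arrays.

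**Figure D4:**
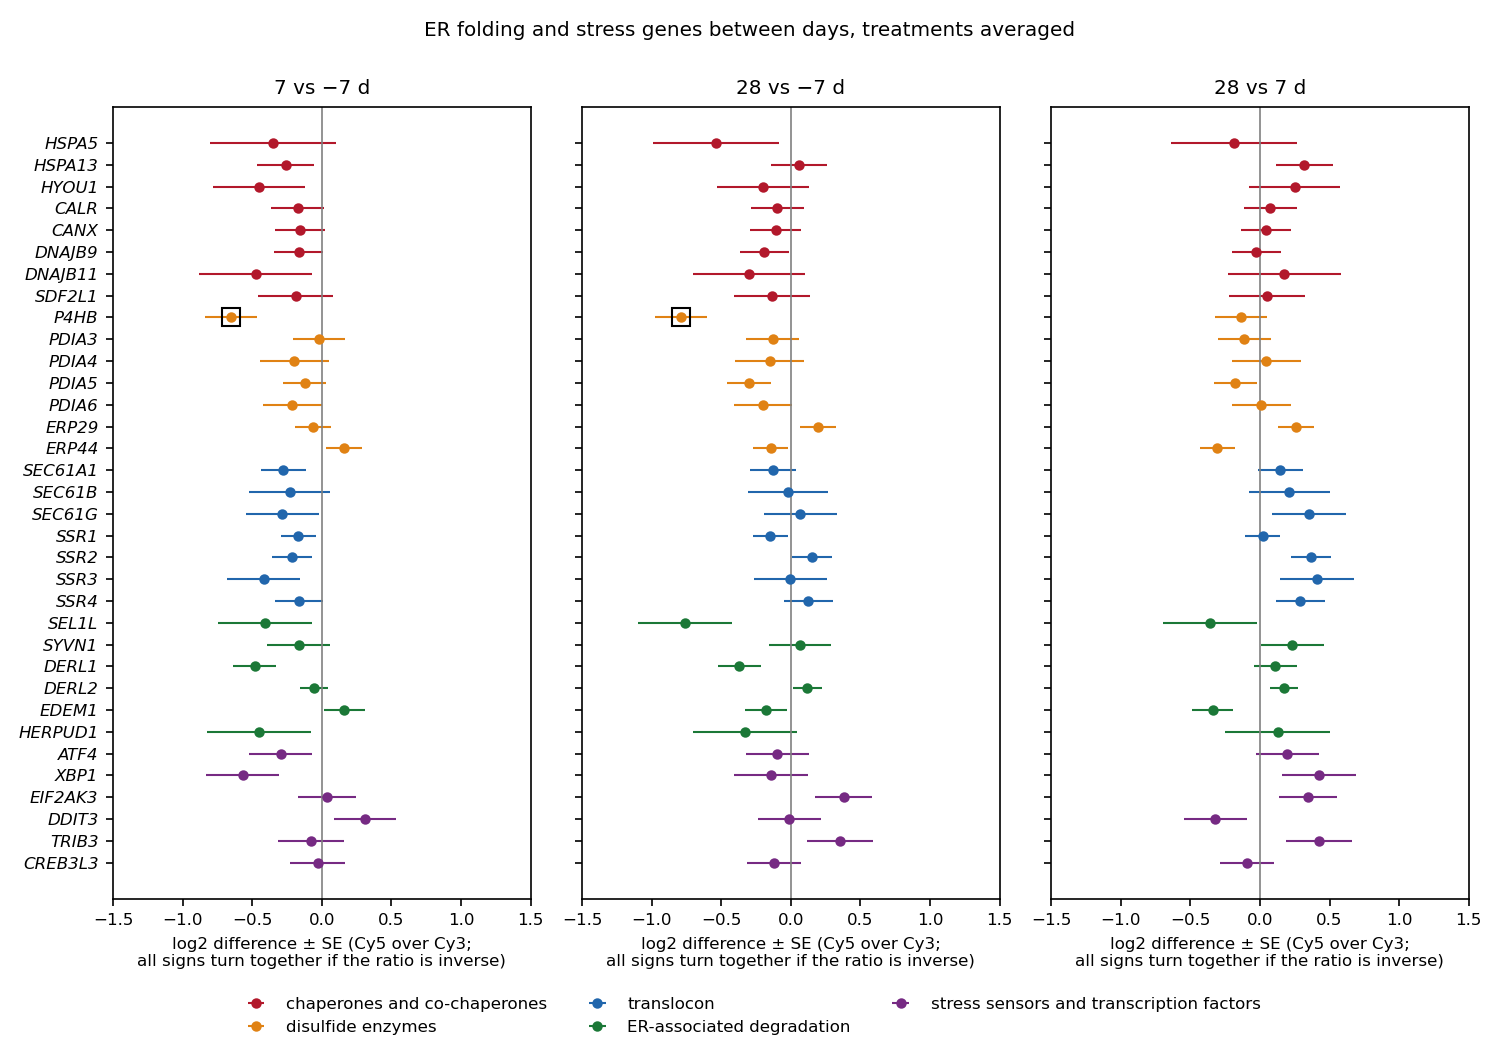
Fitted log2 difference ± SE (x axis, Cy5 over Cy3 order) of each member between 7 and −7 d, 28 and −7 d, and 28 and 7 d, coloured by role, with called values boxed. Only P4HB is boxed, and 30 of 34 points lie below 0 for 7 vs −7 d against 10 of 34 for 28 vs 7 d.

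By role, 30 of 34 members lay below 0, on the side of HP, for 7 vs −7 d, with a median of −0.19, while over all genes the median was −0.02 and 47.3% lay above 0. All 8 chaperones (median −0.22) and all 7 translocon genes (median −0.23) were among the 30. The 4 members above 0 were DDIT3 (0.31), EDEM1 (0.16), ERP44 (0.16) and EIF2AK3 (0.04). For 28 vs −7 d, 25 of 34 lay below 0 (median −0.13), the translocon being split into 3 above and 4 below, while 50.46% of all genes lay above 0. For 28 vs 7 d, 24 of 34 lay above 0 (median 0.12), with all 7 translocon genes among them (median 0.29, from 0.02 for SSR1 to 0.41 for SSR3). Over all genes, 52.25% lay above 0 in that comparison. The SSR3 value averages a probe on 48 arrays (0.19, SE 0.20) with a probe on 21 arrays (1.04, SE 1.34). The SEC61B value likewise averages a probe on 48 arrays (−0.005, SE 0.16) with a probe on 26 arrays (0.48, SE 1.38). These comparisons share arrays and cows, and the members share the arrays too, so the counts are not independent. Without the pair of B4F75 cows, 23 of 34 lay below 0 for 7 vs −7 d and 18 of 34 for 28 vs −7 d. Without the pair of B4F125 cows, 17 of 34 lay above 0 for 28 vs 7 d, and with 1 probe per gene it was also 17 of 34.

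The rest of the pathway, 84 other tested genes of ER folding, protein entry and stress signalling, was counted in the same way, with no test of a difference from the members: 60 of 84 lay below 0 for 7 vs −7 d (median −0.10), 46 of 84 for 28 vs −7 d (−0.04), and 56 of 84 above 0 for 28 vs 7 d (0.08). In 7 vs −7 d, 27 of the 32 other genes of ER folding and quality control lay below 0 (median −0.20), against 14 of 22 cytosolic chaperones (−0.07). SHMT2, a mitochondrial enzyme of serine and glycine metabolism and a target of ATF4, was called for 7 vs −7 d (−0.72, SE 0.21, adjusted p 0.233), and PPP1R15B, a subunit of the phosphatase that reverses PERK signalling, for 28 vs −7 d (0.63, SE 0.22, adjusted p 0.270). Markers of other cells also differed between the same days. The beta globin gene HBB of red cells was called at 1.82 (SE 0.48) and 1.80 (SE 0.48) for 7 and 28 d against −7 d, opposite to HP and P4HB, and 5 of 6 erythroid markers lay above 0 for 7 vs −7 d (−0.04 to 1.82). Of 12 endothelial markers, 10 lay below 0 for 7 vs −7 d (median −0.18), and STAB1, a scavenger receptor of liver sinusoids, was called at −0.65 (SE 0.21) for 28 vs −7 d. Hepatocyte markers lay on both sides (11 above and 8 below 0 for 7 vs −7 d). The part of these cell types in the values of the members was not tested.

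The change between 7 and −7 d was also compared between treatments. No member was called in BCS5 minus BCS4, where 0.841% of all genes were, nor in F125 minus F75, where 1.11% were, by limma or by the mixed model fitted gene by gene. At an unadjusted p under 0.05, 1 of 68 member tests was below it, DDIT3 in BCS5 minus BCS4 (−0.55, SE 0.24, adjusted p 0.996), against 5.91% of all tests. In BCS5 minus BCS4, 25 of 34 members lay below 0 (median −0.05), while 51.6% of all genes lay above 0.

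The main question of the study was feeding before calving within a BCS group. In lean cows (BCS4) no member was called in B4F125 vs B4F75 on any day or with the days averaged, while 0.473% of all genes were called at −7 d, 1.01% at 7 d, 0.846% at 28 d and 0.433% over the days. In BCS5 cows 1 member, PDIA5, was called at −7 d, where 0.64% of all genes were, and none at 7 d (1.05%), 28 d (0.393%) or over the days (0.447%). Over the 8 feeding comparisons 3 of 272 member tests had an unadjusted p under 0.05, against 3.85% of all tests.

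PDIA5 (NCBI gene 511603), a less studied protein disulfide isomerase known in human cells to act on ATF6, stood above its B5F75 level in B5F125 cows at −7 d by 0.59 (SE 0.19, FC 1.51, adjusted p 0.9997). The 2 arrays on which these groups met gave 0.38 and 0.26. B5F125 also exceeded B4F75 by 0.71 and 0.83, and B4F125 by 0.47 and 1.17, so B5F125 was the higher side on all 6 within-day arrays that held it at −7 d. On the between-day arrays of B5F125 cows, PDIA5 stood at −0.02 for −7 d over 7 d and at −0.37 for 28 d over −7 d. B5F75 was above B4F75 by 0.17 and 0.11 but differed from B4F125 by −0.33 and −0.14. Relative to the mean of the 4 treatments on that day, the fitted levels on the log2 scale were 0.40 for B5F125 (SE 0.12), −0.07 for B4F75, −0.13 for B4F125 and −0.19 for B5F75, and the lower 3 do not differ beyond their errors. At 7 d PDIA5 was ordered otherwise, with 0.21 in B5F125, 0.13 in B5F75, −0.06 in B4F125 and −0.28 in B4F75, and at 28 d all 4 levels lay within 0.03 of 0. The 2 probes gave 0.34 (SE 0.17) and 0.84 (SE 0.30) and correlated at 0.29 over the arrays, so the size of the difference depends on the probe. The FC lies at the threshold, and the call was lost without either pair of B4F75 and B5F125 cows, either pair of B4F125 and B5F75 cows, 1 of the pairs of B4F125 and B5F125 cows, or the between-day pair of B5F75 cows, with values from 0.47 to 0.58.

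**Figure D5:**
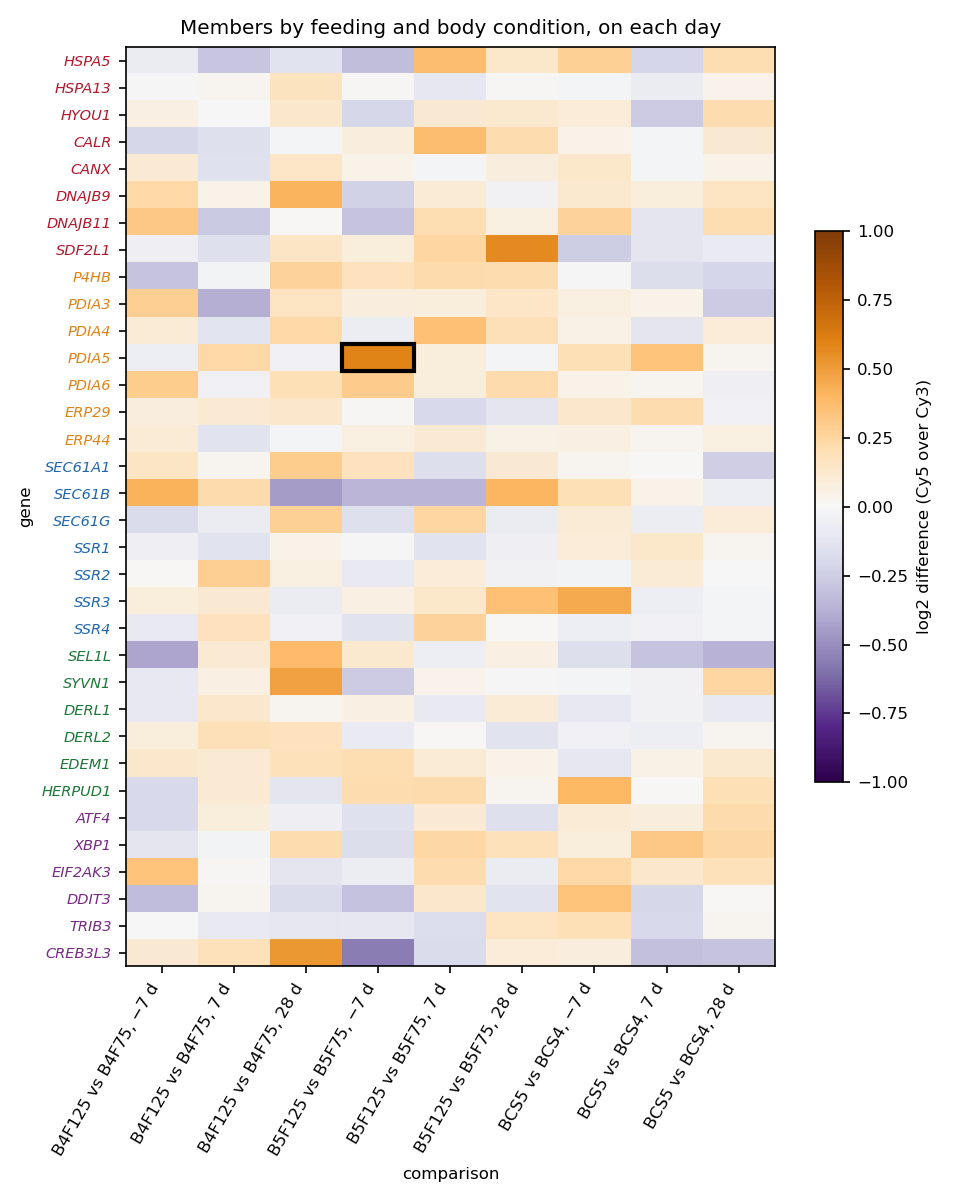
Fitted log2 difference (colour, −1 to 1, Cy5 over Cy3) of the 34 members for B4F125 vs B4F75, B5F125 vs B5F75 and BCS5 vs BCS4 at −7, 7 and 28 d, with the called value boxed. Most cells are pale, and PDIA5 at −7 d in BCS5 cows (0.59) is the one boxed.

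CREB3L3, which controls acute-phase and lipid genes in liver, was the other member with an unadjusted p under 0.05 for feeding, with opposite signs in the 2 BCS groups: −0.56 (SE 0.24) at −7 d in BCS5 cows, where the direct arrays gave −0.43 and −0.69, and 0.52 (SE 0.24) at 28 d in BCS4 cows, from 0.12 and 0.19. Neither was called. SDF2L1 at 28 d in BCS5 cows stood at 0.57 (SE 0.33), with 0.60 and 1.11 on the direct arrays, and SYVN1, the ubiquitin ligase, at 0.48 (SE 0.27) at 28 d in BCS4 cows. The member medians lay between −0.04 (B5F125 vs B5F75 at −7 d) and 0.13 (B4F125 vs B4F75 at 28 d) over the 8 feeding comparisons, where the medians of all genes lay between −0.02 and 0.02. In B5F125 vs B5F75 at −7 d all 6 stress sensors and transcription factors lay below 0 (median −0.16), while in B4F125 vs B4F75 at 7 d all 6 degradation genes lay above 0 (median 0.11, from 0.06 to 0.19). Over all genes, 51.3% and 51.7% lay above 0 in these comparisons. Both are picked from all roles over the 8 feeding comparisons, and the members share arrays, so these counts are no evidence of a response by role.

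For HSPA5 the direct and the fitted values disagreed in lean cows. At −7 d the 2 arrays of B4F125 against B4F75 gave 0.77 and 1.98, and DNAJB11 gave 1.25 and 2.24, with B4F125 the higher side on both. The fit, which also uses the arrays of both groups against BCS5 cows, gave −0.08 (95% confidence interval −1.19 to 1.04) for HSPA5 and 0.31 (SE 0.49) for DNAJB11. At 28 d the same pairs gave −0.46 and −1.54 for HSPA5. With only the arrays on which both feeding levels met, HSPA5 and DNAJB11 in BCS4 cows at −7 d and SSR3 in BCS5 cows at 28 d (1.30 and 1.24 on its arrays, 0.36 in the fit) would be called, and PDIA5 would not (0.32). A feeding difference of HSPA5 below a factor of 2 was not detectable at these errors.

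Of the other pathway genes described here, DDIT4, a stress-induced inhibitor of mTORC1, was called on the higher side in B5F125 vs B5F75 at −7 d (1.40, SE 0.41). Feeding also called TUSC3, a subunit of the oligosaccharyltransferase (−1.22, SE 0.38), in B4F125 vs B4F75 at 7 d and ATF3, a stress-induced transcription factor (−0.72, SE 0.24), at 28 d. In the comparison in which PDIA5 was called, 50 of 84 other pathway genes lay above 0. In that comparison HBB was higher by 1.95 (SE 0.58), the other 5 erythroid markers lying between −0.21 and its value, the apolipoprotein gene APOA1 of hepatocytes differed by −1.43 (SE 0.39) while 15 of 19 hepatocyte markers lay above 0, and all 9 cholangiocyte markers lay below 0 (median −0.46). Their part in the PDIA5 value was not tested.

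The interaction of BCS and feeding asks whether the feeding difference in BCS5 cows differed from that in BCS4 cows. No member was called at −7 d, 7 d, 28 d or over the days, where 0.42%, 0.987%, 0.633% and 0.447% of all genes were called, and 1 of 136 member tests had an unadjusted p under 0.05 (3.63% of all tests). It was PDIA5 at −7 d (0.65, SE 0.27). The HSPA5 interaction was 0.65 (95% confidence interval −0.93 to 2.23) at 7 d. The opposite signs of CREB3L3 in the 2 BCS groups gave −0.67 (SE 0.34) at −7 d and −0.42 (SE 0.34) at 28 d, and were not called. Among the other pathway genes TUSC3 was called at 7 d (1.79, SE 0.54). The neutrophil genes S100A9 (2.06, SE 0.55), S100A12 and PADI4 were also called there, 10 of 13 neutrophil markers lying above 0 (median 0.18, from −0.62 to 2.06), and the part of neutrophils in that comparison was not tested.

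BCS itself, with the feeding levels averaged, called no member at −7 d (0.313% of all genes), 7 d (0.88%), 28 d (0.273%) or over the days (0.174%), by limma or by the mixed model, and 1 of 136 member tests had an unadjusted p under 0.05 (3.34% of all tests), PDIA5 at 7 d (0.34, SE 0.14, adjusted p 0.854). Member medians of BCS5 vs BCS4 were 0.08 at −7 d, −0.03 at 7 d and 0.03 at 28 d. The largest single values were SSR3, a translocon-associated subunit, at −7 d (0.45, SE 0.23), HERPUD1 at −7 d (0.40, SE 0.32) and SEL1L at 28 d (−0.36, SE 0.29). All 6 stress sensors and transcription factors lay above 0 at −7 d (median 0.15, from 0.08 for CREB3L3 and XBP1 to 0.34 for DDIT3), where 48.8% of all genes did, and 3 of 6 did at 7 d. HSPA5 stood at 0.28 (SE 0.39), −0.21 (SE 0.39) and 0.21 (SE 0.39) on the 3 days, all smaller than their errors. At 28 d all 12 endothelial markers lay below 0 (median −0.22) beside 7 of 8 chaperones above 0 (median 0.13), and their part in those values was not tested.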

How the data were processed

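Liver RNA of 32 cows was compared on 48 two-colour arrays. As deposited, a spot holds the log2 ratio of its dyes on an array, from GenePix scans in which the authors had dropped spots of poor quality, and arrays were not centred (array medians from 0 to 0.52). The 48 value columns of the annotated table are named by slide, match no sample and were not used. Gene names there had lost the digit 0: of 16628 written names, 361 were restored from the RefSeq gene table, and 291 ambiguous names and 24 dates were left out. Of 43803 spots, 33521 were used. Arrays were centred on their median, probes averaged per gene, and 15011 genes on at least 24 arrays tested.

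In R 4.3.3 with limma 3.58.1 and statmod 1.5.0, ratios were fitted gene by gene with 12 group means and a dye term, cow pair as random block (correlation 0.15, ratios turned to 1 cow-minus-cow direction), moderated variances (prior df 3.17, residual df 36) and Benjamini-Hochberg adjustment over all genes. The fit was tested on simulated data. P-values measure the spread of the arrays around the fitted group means, pooled over all 48 arrays, with the correlation within cow pairs allowed for. For the comparisons of days they do not measure the spread among the 4 between-day pairs alone. Every member was named. Arrays and statistics were given in full for called members, and other pathway genes were named where called, except 1 result that is not reported here. DERL1, XBP1, TRIB3, SEL1L, CREB3L3 and the further members described in detail were picked with their values in view. The members and lists were chosen with earlier results of these data known. The alternatives were other scalings, blocks, filters, weights and thresholds, 1 probe per gene, subsets of arrays, and each cow pair left out.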

Additional observations from a re-analysis of the deposited data

Results flagged for a closer look

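In 2 of 102 groups of 4 between-day arrays, 1 array stood far from the other 3 by Dixon's criterion, which chance gives in about 1 of 20 groups. Both concern PDIA4 and the B4F75 cows that also gave the widest HSPA5 ratio. For 28 vs −7 d the log2 ratio of PDIA4, in the Cy5 over Cy3 order, was −1.47 on the array of B4F75 and between 0.19 and 0.45 on those of the other treatments. For 28 vs 7 d it was 0.96 on the array of B4F75 and between −0.42 and −0.18 on the others.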

How the results depend on the processing

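P4HB kept its sign in both comparisons with −7 d under all alternatives run. Of 2 member calls between days, 0 passed an adjusted p under 0.05 and 1 was kept with the between-day arrays alone (P4HB in 28 vs −7 d). Leaving out each cow pair gave 1 to 3 calls, and without the B4F75 between-day pair the single call was TRIB3 in 28 vs −7 d, while without that of B5F125 it was P4HB in 28 vs −7 d. With all pairs in, the TRIB3 probes disagreed for 28 vs −7 d: 0.16 and 0.02 on 48 arrays, and 1.99 (SE 0.57) for a probe on 27 arrays. With values as deposited, P4HB in 28 vs −7 d was −0.88 (adjusted p 0.025). The single feeding call, PDIA5, was lost (0 calls) with values as deposited (0.56), array quality weights (0.51), adjusted p under 0.05, 1 probe per gene (that on most arrays, 0.34 for PDIA5, whose other probe gave 0.84), the within-day arrays of that day alone (0.58) and without the between-day arrays (0.58), and 3 other calls arose with only the arrays on which both feeding levels met. Leaving out each cow pair gave 0 to 1 feeding calls and 0 to 1 calls in the interactions (DDIT3 in the change from −7 to 7 d between BCS groups, without the between-day pair of B4F75 or B5F125 or 1 pair of B4F75 and B5F75). BCS comparisons gave 0 calls under all 32 alternatives. With that 1 probe per gene, 17 of 34 members lay above 0 for 28 vs 7 d.

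With the cow variance estimated gene by gene as a replicate block, the calls were again 2 between days and 1 for feeding, with adjusted p of 0.182 and 0.055 for P4HB, and with no block for cow pair the counts were the same. Taking gene names as written, DNAJC3 included, an alternative added after seeing the data, changed no count. Spots without intensities, 12 arrays of 4 cow pairs for all comparisons of days and an unsettled ratio direction limit what these values can show.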
